A study of Mus musculus with 9 samples.

Results

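Th17 cells that were moved into Th1 medium at their second activation, called Th17-derived Th1 cells, were compared with Th17 cells that stayed in Th17 medium, by messenger RNA sequencing of 3 libraries in each group. The comparison takes 6 of the 9 libraries of the series, chosen by their titles, and the other 3, from Th1 cells, enter as a reference and share the estimate of the spread. All cells were naive splenic T cells of wild-type C57BL/6 mice. Both groups were primed in Th17 medium, with TGF-beta at 1 ng/mL, IL-6 at 20 ng/mL, IL-1beta at 10 ng/mL and antibodies that neutralise interferon-gamma, IL-12 and IL-4. Antibodies to CD3 and CD28 were present for the first 3 days, and IL-2 at 100 U/mL from day 5. On day 7 all cells were restimulated with soluble anti-CD3 and anti-CD28, each at 0.05 ug/mL, and RNA was prepared on day 10. At restimulation the Th17 group returned to Th17 medium. The Th17-derived Th1 group, shortened below to derived cells, received IL-12 at 10 ng/mL and the anti-IL-4 antibody instead, and so lost TGF-beta, IL-6, IL-1beta and the antibodies that block interferon-gamma and IL-12. The Th1 reference was primed and restimulated in Th1 medium. The comparison therefore shows the net result of all these changes over the last 3 days, and the effect of 1 cytokine or antibody cannot be told apart from the others, nor a stable fate from an acute response to the medium. No library from day 7 was analysed here.

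Th17 cells are helper T cells induced by TGF-beta with IL-6 and recognised by the cytokine IL-17. Th1 cells are induced by IL-12 through STAT4, express T-bet and secrete interferon-gamma, which acts back on T cells and switches on guanylate-binding proteins and antigen processing. TGF-beta signals through SMAD proteins, which induce their own inhibitors and the CD103 integrin chain in T cells.

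Values are FPKM, read fragments corrected for the length of the transcript and the size of the library. Summed FPKM of the 6 libraries ran from 382581 to 394064 and 13374 to 14063 genes had a value above 0. Read depth is unknown, so no counting error can be given. Libraries correlated across genes, on log2(FPKM + 1), at 0.975 to 0.993 among derived cells, at 0.980 to 0.993 among Th17 cells and at 0.930 to 0.966 between the groups. Genes are not independent replicates. Cd8a, the CD8 alpha chain, was at 17.4, 27.4 and 104 FPKM in derived replicates 1, 2 and 3 and at 37.4, 54.9 and 141 FPKM in Th17 replicates 1, 2 and 3. Cd4, the helper co-receptor, was at 91.1, 86.8 and 96.9 and 97.5, 88.1 and 52.9 FPKM in the same order, so replicate 3 of each group held more Cd8a than Cd4. The series title speaks of CD4+ T cells, while a sort for CD4 is not given in the labels. Several counts are therefore also given for replicates 1 and 2 alone and with Cd8a and Cd8b1 as a covariate; beyond these fits, the part of Cd8a-rich libraries in the results was not tested. The labels do not say that replicates were separate cultures or mice, so a p-value here reflects the spread among these libraries, which may be technical. In bulk RNA, fewer cells of a type and less RNA per cell cannot be told apart. Below, 3 values in a row are replicates 1, 2 and 3, means are given ± SD (n = 3), and differences are derived minus Th17 cells on log2(FPKM + 1), ± SE, with limma p-values adjusted by Benjamini-Hochberg over all genes tested.

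Of 10538 genes tested, 1678 (15.9%) differed between derived and Th17 cells at an adjusted p below 0.05. Of these, 678 (6.43% of genes tested) were higher and 1000 (9.49%) lower in derived cells. Higher genes differed by more: 313 of them by at least 2-fold against 182 of the lower genes, 75 against 32 by at least 4-fold, and 20 against 6 by at least 8-fold. The median difference was 0.96 among higher and -0.55 among lower genes. Over all genes tested the median was -0.12, and the balance of calls moved with scaling: 40.4% of calls were higher on the deposited values, 63.1% after median-ratio scaling (852 higher and 498 lower, median -0.01) and 54.5% after quantile normalization (750 and 625, median -0.05). The called genes named below by the rule for named genes kept their sign under each scaling tried. In 4554 genes (43.2%) the 3 derived and the 3 Th17 libraries did not overlap, and 1677 of the 1678 called genes were among them. A lack of overlap in a called gene named below therefore only describes its values and adds nothing to the call. It was also a condition for naming the largest differences.

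**Figure D1:**
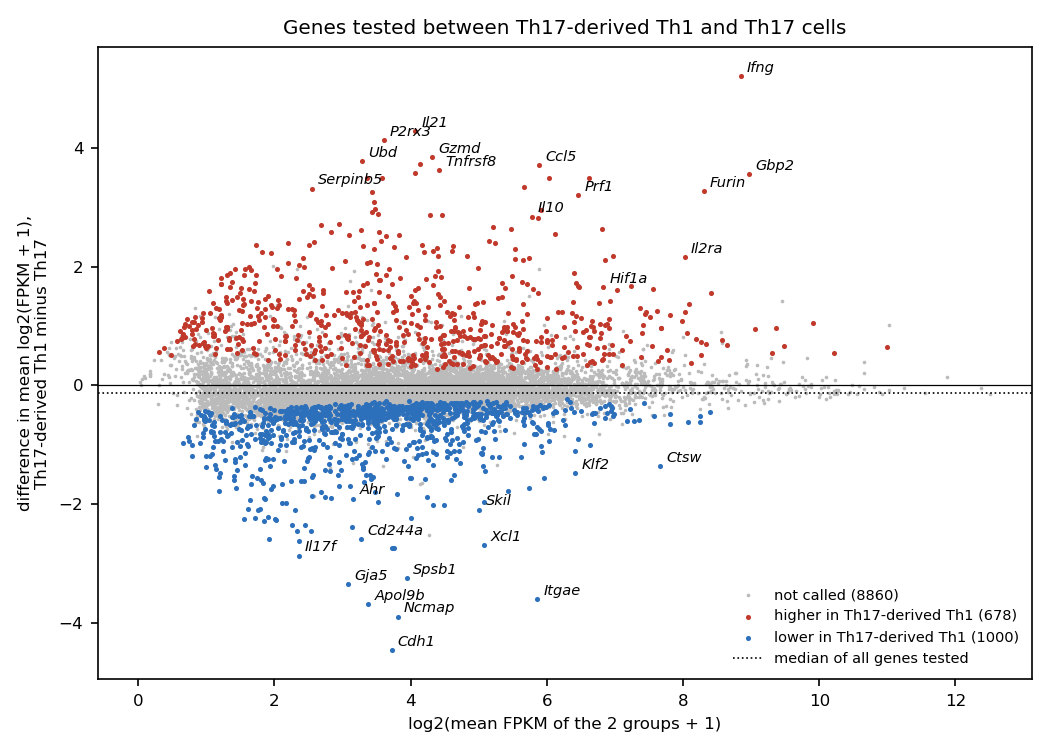
Each point is 1 of the 10538 genes tested, by the log2 of its mean FPKM + 1 over the 2 groups (horizontal) and its difference in mean log2(FPKM + 1), derived minus Th17 cells (vertical); red genes were called higher (678), blue genes lower (1000). The red points reach 5.23 (Ifng) and the blue points -4.47 (Cdh1), and the dotted line marks the median of all genes at -0.12.

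Derived cells held more transcript for the IL-2 receptor alpha chain, gp130 and the IL-33 and IL-18 receptors, and less for the signalling chain of the interferon-gamma receptor. Among 29 tested chains of cytokine receptors, 8 were higher and 2 lower in derived cells (for the lower count, 4 without Th1 replicate 2), against 6.43% and 9.49% of all genes tested, with a median difference of 0.11. Il2ra, the alpha chain of the IL-2 receptor (chromosome 2, 11642807 to 11693193), was at 457, 413 and 401 FPKM against 83.4, 80.2 and 121 FPKM in Th17 cells. Il6st, the gp130 signal chain of the IL-6 receptor (chromosome 13, 112464070 to 112510086), was at 42.0, 33.7 and 42.7 FPKM against 7.84, 8.36 and 6.17 FPKM in Th17 cells. Neither gene's groups overlapped, and the differences were 2.17 ± 0.17 (adjusted p = 0.000154) and 2.26 ± 0.21 (adjusted p = 0.000256). Il6ra, the chain that binds IL-6, did not pass the test, at 12.7, 14.4 and 11.4 FPKM against 27.4, 30.3 and 14.8 FPKM in Th17 cells (difference -0.81 ± 0.28, adjusted p = 0.0781). Il6ra stayed uncalled in 7 of 9 fits that left out 1 library and in 9 of 14 other fits, and was called lower in the rest. Il1rl1, the IL-33 receptor, was at 13.01, 15.5 and 27.9 FPKM against 0.872, 1.29 and 2.15 FPKM in Th17 cells (difference 2.98 ± 0.28, adjusted p = 0.000265). Il18rap, a chain of the IL-18 receptor, was at 70.3, 63.7 and 107 FPKM against 14.3, 13.6 and 26.1 FPKM in Th17 cells (difference 2.12 ± 0.29, adjusted p = 0.00202). In both genes replicate 3 was the highest library of each group. Il12rb2, the inducible chain of the IL-12 receptor, averaged 64.9 ± 15.1 FPKM in derived and 76.2 ± 18.5 FPKM in Th17 cells, with overlapping libraries, and Stat4, its signal transducer, averaged 27.9 ± 6.66 and 24.2 ± 1.86 FPKM (adjusted p = 0.664 and 0.605). Ifngr2, the signalling chain of the interferon-gamma receptor (chromosome 16, 91547072 to 91565623), was lower, at 4.23, 4.77 and 4.34 FPKM against 16.6, 16.2 and 11.3 FPKM in Th17 cells (difference -1.51 ± 0.18, adjusted p = 0.000987). Tgfbr1, a TGF-beta receptor, averaged 7.58 ± 0.776 against 12.2 ± 0.385 FPKM (difference -0.62 ± 0.10, adjusted p = 0.00446).

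Of 30 JAK, STAT, IRF and SOCS genes and their regulators, 7 (23.3%) were higher and 1 (3.33%) lower (median 0.18). The shares of all genes tested were 6.43% and 9.49%. Higher calls numbered 2 without Th17 replicate 1 or 2 or derived replicate 2 and 3 without derived replicate 1 or 3. With replicates 1 and 2 only, 3 were higher and 0 lower. The lower count was 2 without Th1 replicate 2 or Th17 replicate 3, and 2 with the Cd8 covariate. Irf4, a factor induced by the T cell receptor, was at 24.7, 21.9 and 20.1 FPKM against 9.95, 8.71 and 14.2 FPKM in Th17 cells (difference 0.98 ± 0.16, adjusted p = 0.00384). Stat2, a signal transducer of type I interferons, averaged 33.0 ± 3.27 against 18.0 ± 1.05 FPKM (difference 0.83 ± 0.14, adjusted p = 0.00502, and 0.0525 with replicates 1 and 2 only). Irf1, a factor induced by interferon-gamma, averaged 124 ± 8.29 against 71.5 ± 19.9 FPKM (difference 0.82 ± 0.22, adjusted p = 0.0358). Its adjusted p was 0.130 without Th17 replicate 1, 0.137 without Th17 replicate 2, 0.0856 without derived replicate 1, 0.0840 without derived replicate 2 and 0.0961 without derived replicate 3, and 0.0639 with no filter on low values. The feedback inhibitors Socs1 and Socs3 had overlapping libraries. Socs1 was at 63.9, 64.4 and 39.8 FPKM against 41.2, 45.6 and 57.2 FPKM in Th17 cells, and Socs3 at 71.9, 68.9 and 64.5 FPKM against 69.0, 77.4 and 45.2 FPKM in Th17 cells. Neither passed the test (adjusted p = 0.602 and 0.626).

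Genes induced by interferon-gamma held the highest share of called members among the 38 lists plotted further below. Of 19 tested interferon-inducible GTPases, proteins that attack vacuoles of intracellular microbes, 17 (89.5%) were higher and 0 lower in derived cells. The shares of all genes tested were 6.43% and 9.49%. The median difference of the GTPases was 1.37, and their differences ran from 0.68 to 3.57. Gbp2, the most abundant of the guanylate-binding proteins named here (chromosome 3, 142620602 to 142638008), was at 825, 736 and 1212 FPKM against 66.3, 57.8 and 111 FPKM in Th17 cells. Gbp5, a platform for inflammasome assembly, was at 62.6, 55.6 and 69.2 FPKM against 8.24, 6.76 and 12.6 FPKM in Th17 cells, and Gbp3 at 67.4, 67.0 and 86.1 FPKM against 12.8, 11.6 and 26.2 FPKM in Th17 cells. In each of these 3 genes the lowest derived library was at least 2 times the highest Th17 library, and Th17 replicate 3 stood above the other Th17 libraries. The differences were 3.57 ± 0.54 for Gbp2 (adjusted p = 0.00299), 2.67 ± 0.36 for Gbp5 (adjusted p = 0.00187) and 2.14 ± 0.36 for Gbp3 (adjusted p = 0.00466). Close copies exist within this family, and how reads shared between copies were assigned is not given in the sources used here.

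Antiviral interferon-stimulated genes moved the same way: 25 of 44 tested (56.8%) were higher and 0 lower, with a median of 0.93. For all genes tested the shares were 6.43% and 9.49%. Ifi204, a DNA sensor of the p200 family (chromosome 1, 173747293 to 173766943), was at 31.5, 25.003 and 39.0 FPKM against 1.10, 0.826 and 2.70 FPKM in Th17 cells (difference 3.74 ± 0.51, adjusted p = 0.00183). Ifit3, which binds foreign RNA together with Ifit1 (chromosome 19, 34583531 to 34588731), was at 11.8, 19.1 and 25.1 FPKM against 0.842, 0.756 and 1.34 FPKM in Th17 cells (difference 3.27 ± 0.32, adjusted p = 0.000377). Ifit1 was at 6.59, 7.78 and 11.1 FPKM against 0.479, 0.561 and 1.53 FPKM in Th17 cells (difference 2.37 ± 0.29, adjusted p = 0.00109). These 3 genes were below 3 FPKM in each Th17 library. Oasl2, a homologue of the 2'-5' oligoadenylate synthetases, was at 8.80, 9.12 and 12.6 FPKM against 0.707, 0.260 and 1.22 FPKM in Th17 cells (difference 2.71 ± 0.22, adjusted p = 0.000173). No derived library of these 4 genes lay within the Th17 range, and absolute levels stayed low compared with Gbp2. In the Th1 reference Oasl2 averaged 0.959 ± 0.322 FPKM and Ifit3 3.33 ± 1.53 FPKM, below the derived means of 10.2 ± 2.08 and 18.7 ± 6.69 FPKM.

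Since these groups are textbook targets of STAT and IRF factors, the 250 bases before their RefSeq start sites (GRCm38.p6) were searched on both strands for the letters GAAANNGAA, the core of the interferon-stimulated response element bound by ISGF3 and IRF factors, and TTCNNNGAA, the gamma-activated site bound by STAT dimers. Matches of the motifs may overlap each other. The first was found before 7.16% and the second before 7.18% of 27025 mouse genes, and before 6.43% and 5.97% of the 8365 tested genes with a promoter in the table. Among 523 genes called higher the shares were 13.96% and 8.80%, and among 795 genes called lower 5.03% and 4.78%. Of 10 tested GTPase genes with a promoter, 9 held the first motif and 6 the second. Of 33 antiviral genes, 16 held the first and 4 the second, and of 20 genes of MHC class I processing 4 and 2. Of 29 glycolysis and hypoxia genes 1 held the first motif and 0 the second, as did 1 and 0 of 18 TGF-beta genes. A match is a description of letters and not a site shown to be bound in these cells.

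These upstream stretches, taken from RefSeq and printed 5' to 3' on the strand of the gene in lower case with motif matches in capitals, belong to strongly higher genes of both groups, to the chemokine gene Cxcl10 and to Irf1. Bases that lie in an annotated exon were left out. Gbp5 (chr3:142496684-142496899, plus strand, 216 bases) held 1 match of the first motif, with its first base at -164 counted back from the start site, and 2 of the second, at -245 and -52.
Gbp5: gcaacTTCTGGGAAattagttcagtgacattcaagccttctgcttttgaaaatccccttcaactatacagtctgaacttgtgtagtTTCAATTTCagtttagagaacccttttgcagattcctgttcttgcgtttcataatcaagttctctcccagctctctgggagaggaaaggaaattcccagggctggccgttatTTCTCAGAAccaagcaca
Gbp3 (chr3:142559794-142560025, plus strand, 232 bases) held 2 overlapping matches of the first motif, at -44 and -38.
Gbp3: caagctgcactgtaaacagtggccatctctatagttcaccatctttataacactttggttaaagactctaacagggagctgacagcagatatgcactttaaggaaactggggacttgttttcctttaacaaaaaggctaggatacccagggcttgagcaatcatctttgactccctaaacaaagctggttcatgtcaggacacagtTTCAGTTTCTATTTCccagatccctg
Ifit3 (chr19:34583279-34583528, plus strand, 250 bases) held 3 matches of the first motif, at -155, -121 and -102.
Ifit3: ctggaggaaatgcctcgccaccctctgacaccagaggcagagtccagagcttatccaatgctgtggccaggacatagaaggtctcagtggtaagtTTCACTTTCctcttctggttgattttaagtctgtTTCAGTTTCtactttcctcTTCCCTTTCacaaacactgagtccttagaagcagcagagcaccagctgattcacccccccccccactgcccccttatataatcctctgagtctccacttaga
Ifit1 (chr19:34640744-34640870, plus strand, 127 bases) held 3 matches of the first motif as well, at -109, -103 and -84, of which a pair overlapped.
Ifit1: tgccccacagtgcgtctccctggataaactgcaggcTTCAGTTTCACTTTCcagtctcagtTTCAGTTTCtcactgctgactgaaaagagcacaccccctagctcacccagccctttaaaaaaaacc
Cxcl10 (chr5:92348890-92349139, minus strand, 250 bases) held 1 match of the first motif, at -213.
Cxcl10: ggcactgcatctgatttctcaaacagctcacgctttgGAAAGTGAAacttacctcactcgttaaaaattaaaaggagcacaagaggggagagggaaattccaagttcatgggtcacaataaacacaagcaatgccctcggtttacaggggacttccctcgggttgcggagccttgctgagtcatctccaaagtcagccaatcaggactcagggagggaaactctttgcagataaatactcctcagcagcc
Irf1 (chr11:53769764-53770013, plus strand, 250 bases) held 0 matches of the first motif and 1 of the second, at -90.
Irf1: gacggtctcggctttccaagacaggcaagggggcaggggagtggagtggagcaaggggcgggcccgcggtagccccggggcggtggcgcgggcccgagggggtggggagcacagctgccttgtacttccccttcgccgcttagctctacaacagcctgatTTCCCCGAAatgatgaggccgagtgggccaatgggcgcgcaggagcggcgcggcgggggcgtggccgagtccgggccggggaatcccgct
The window of Gbp2 held its 1 match at -58, inside an annotated exon, and is not printed, and that of Oasl2 held no match of either motif.

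Antigen presentation genes were higher by smaller amounts. Of 24 tested genes of MHC class I antigen processing, 12 (50%) were higher and 0 lower (median 0.53). The shares of all genes tested were 6.43% and 9.49%. The higher count of the list was 5 without Th17 replicate 1 or 2 and 6 without derived replicate 1 or 2. It was 7 with no filter on low values. H2-T23, which encodes the nonclassical molecule Qa-1 (chromosome 17, 36029773 to 36032855), was at 237, 242 and 280.0 FPKM against 109.7, 108 and 119 FPKM in Th17 cells, a 2.24-fold difference (adjusted p = 0.00142). Its neighbours H2-T24 and H2-T22 differed by 1.23 ± 0.17 (adjusted p = 0.00202) and 1.01 ± 0.18 (adjusted p = 0.00588). B2m, the light chain of class I molecules and the called gene with the largest gain in FPKM, was at 2561, 2426 and 2480.2 FPKM against 1626, 1414 and 1761 FPKM in Th17 cells (difference 0.64 ± 0.14, adjusted p = 0.0150). Its adjusted p was 0.0549 without Th17 replicate 1, 0.0717 without Th17 replicate 2 and 0.0598 without derived replicate 1. It was 0.0713 after quantile normalization, 0.0743 with no filter on low values and 0.0518 with replicates 1 and 2 only. Nlrc5, the transactivator of class I genes, averaged 79.4 ± 4.71 against 46.8 ± 10.7 FPKM (difference 0.77 ± 0.16, adjusted p = 0.0140). The adjusted p was 0.0679 without Th17 replicate 1, 0.0643 without Th17 replicate 2 and 0.0512 without derived replicate 2.

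**Figure D2:**
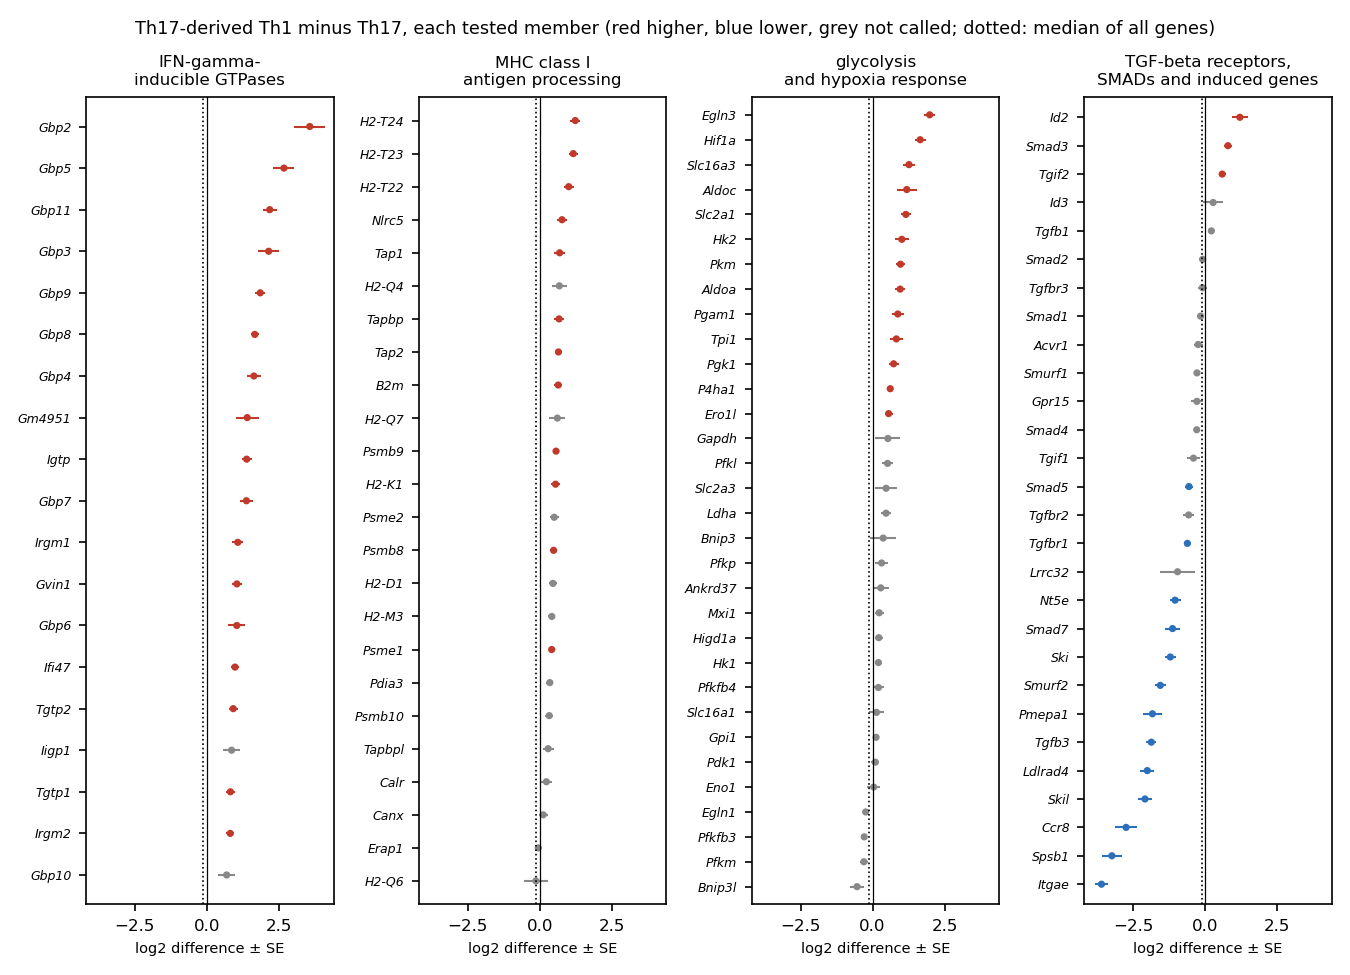
Each tested member of 4 gene lists is placed by its difference in mean log2(FPKM + 1), derived minus Th17 cells, with bars of 1 SE; red members were called higher, blue lower and grey not called, and the dotted line is the median of all genes (-0.12). All GTPases lie to the right of 0 (17 of 19 called), whereas 13 of 28 TGF-beta genes were called lower and 3 higher. Among all genes tested 6.43% were called higher and 9.49% lower.

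Secreted cytokines changed in both directions. Of 23 tested, 7 (30.4%) were higher and 4 (17.4%) lower, against 6.43% and 9.49% of all genes tested (median 0.60). The higher count was 11 without Th1 replicate 2, a library of the reference group, and the lower count 2 without Th17 replicate 1, 2 or 3. With replicates 1 and 2 only the lower count was 2, and a fit of the 2 groups alone gave 11 higher. Ifng, which encodes interferon-gamma (chromosome 10, 118441046 to 118445892), was at 975, 990.3 and 717 FPKM against 19.9, 14.2 and 40.7 FPKM in Th17 cells, the largest difference of all genes tested (5.23 ± 0.37, adjusted p = 9.04e-05). Il21, a cytokine of T follicular helper and Th17 cells (chromosome 3, 37222759 to 37232636), was at 45.3, 26.4 and 21.3 FPKM against 0.700, 0.383 and 0.624 FPKM in Th17 cells (difference 4.29 ± 0.26, adjusted p = 5.03e-05). Il10, an inhibitor of inflammation (chromosome 1, 131019845 to 131024974), was at 98.8, 91.2 and 93.9 FPKM against 10.95, 8.73 and 19.1 FPKM in Th17 cells, 7.21-fold higher (adjusted p = 0.000250). The mean of 94.6 ± 3.86 FPKM in derived cells can be set beside 93.9 ± 21.7 FPKM in the Th1 reference. Csf2, which encodes GM-CSF, was at 10.99, 12.02 and 10.4 FPKM against 0.965, 1.02 and 1.06 FPKM in Th17 cells, 6.02-fold higher (adjusted p = 0.000222). Spp1, which encodes osteopontin, was at 76.1, 105 and 136 FPKM against 12.5, 7.01 and 20.9 FPKM in Th17 cells (difference 2.96 ± 0.35, adjusted p = 0.000987). The groups overlapped in none of these 5 genes, and within derived cells Il21 was highest in replicate 1 while Spp1 was highest in replicate 3.

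Csf1, the macrophage growth factor, spread widely within derived cells, at 11.8, 7.97 and 35.6 FPKM against 0.603, 1.80 and 1.13 FPKM in Th17 cells (difference 2.92 ± 0.60, adjusted p = 0.0118). The adjusted p of Csf1 was 0.0594 without Th17 replicate 1, 0.0514 with a pseudocount of 5 and 0.0663 with replicates 1 and 2 only. It averaged 309.6 ± 170.3 FPKM in the Th1 reference, above every derived library. Il17a, the signature cytokine gene of Th17 cells, was at 0.160, 0.103 and 0.102 FPKM against 6.16, 2.99 and 4.22 FPKM in Th17 cells. Its relative Il17f was at 0.217, 0.408 and 0.0801 FPKM against 8.77, 7.62 and 7.58 FPKM in Th17 cells (differences -2.24 ± 0.19 and -2.87 ± 0.13, adjusted p = 0.000205 and 1.84e-05). The Th17 cells themselves held little of either, below the level of their Ifng. Tgfb3, an autocrine TGF-beta of Th17 cells, was at 2.39, 1.89 and 1.37 FPKM against 9.65, 11.3 and 7.75 FPKM in Th17 cells (difference -1.87 ± 0.17, adjusted p = 0.000232). Clcf1, a cytokine of the IL-6 family, averaged 13.6 ± 2.26 against 30.9 ± 8.52 FPKM (difference -1.10 ± 0.20, adjusted p = 0.00720). Tnf overlapped, at 46.6, 42.5 and 55.1 FPKM against 35.4, 36.8 and 55.2 FPKM in Th17 cells (adjusted p = 0.475), and Il2 and the IL-1 receptor gene Il1r1 were below 1 FPKM in each of the 6 libraries and were not tested.

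Of 8 tested chemokine genes, 5 (62.5%) were higher and 2 (25%) lower (median 2.06), against 6.43% and 9.49% of all genes tested. Both counts were the same whichever library was left out, and the lower count was 1 with replicates 1 and 2 only or a filter at a mean of 5 FPKM. Ccl5, Ccl3 and Ccl4, chemokines that attract effector T cells and macrophages, were higher together. Ccl5 (chromosome 11, 83525778 to 83530518) was at 78.7, 83.2 and 167 FPKM against 6.35, 6.05 and 8.47 FPKM in Th17 cells (difference 3.72 ± 0.41, adjusted p = 0.000741). Ccl4 was at 73.8, 69.7 and 81.4 FPKM against 11.01, 7.42 and 17.0 FPKM in Th17 cells and Ccl3 at 66.6, 58.0 and 59.3 FPKM against 14.2, 5.07 and 16.5 FPKM in Th17 cells (differences 2.63 ± 0.23 and 2.41 ± 0.33, adjusted p = 0.000205 and 0.00196). Ccl5 was highest in derived replicate 3, whereas Ccl3 was highest in replicate 1. Cxcl10, an interferon-induced ligand of CXCR3, was at 117, 101 and 56.5 FPKM against 6.97, 5.21 and 11.96 FPKM in Th17 cells (difference 3.36 ± 0.48, adjusted p = 0.00230). Xcl1, which attracts cross-presenting dendritic cells (chromosome 1, 164931644 to 164935527), was the opposite, at 6.15, 11.2 and 7.42 FPKM against 56.9, 56.7 and 58.0 FPKM in Th17 cells (difference -2.69 ± 0.30, adjusted p = 0.000741). Ccl1, the ligand of CCR8, averaged 0.896 ± 0.943 against 4.96 ± 2.28 FPKM (difference -1.70 ± 0.34, adjusted p = 0.0116, and 0.0579 with replicates 1 and 2 only). Ccr8, its receptor gene, was, was at 3.46, 3.06 and 1.09 FPKM against 26.9, 27.1 and 13.7 FPKM in Th17 cells (difference -2.75 ± 0.38, adjusted p = 0.00202). Both genes of that ligand and receptor pair were lower in derived cells.

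**Figure D3:**
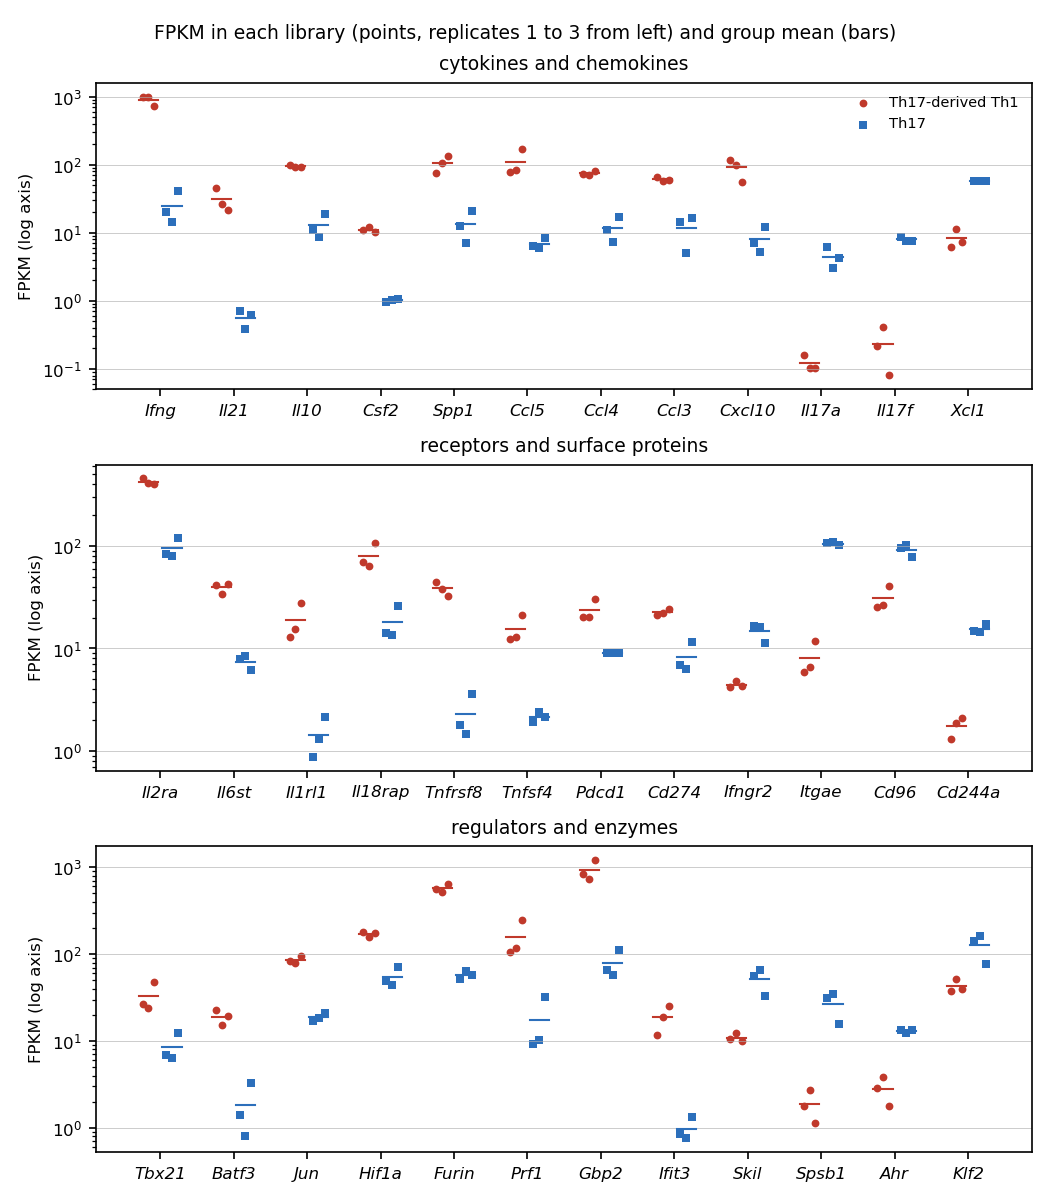
FPKM on a log axis of 36 genes named in the text, with replicates 1 to 3 from left to right as points (red circles, derived cells; blue squares, Th17 cells) and group means as bars. In each gene shown the libraries of the 2 groups do not overlap; Ifng spans 14.2 to 40.7 FPKM in Th17 and 717 to 990.3 FPKM in derived cells, while Itgae spans 102 to 109 and 5.93 to 11.8 FPKM.

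The TGF-beta list had the lowest median of the 38 lists. Of 28 tested receptors, SMAD genes and genes induced by TGF-beta, 13 (46.4%) were lower and 3 (10.7%) higher (median -0.57). The shares of all genes tested were 9.49% lower and 6.43% higher. With replicates 1 and 2 only the higher count was 1 and the lower count 13. Itgae, the CD103 integrin chain (chromosome 11, 73090583 to 73147446), was at 5.93, 6.61 and 11.8 FPKM against 106, 109 and 102 FPKM in Th17 cells (difference -3.60 ± 0.21, adjusted p = 5.03e-05). Cdh1, which encodes its ligand E-cadherin (chromosome 8, 106603351 to 106670246), was at 0.0727, 0.141 and 0.135 FPKM against 25.1, 29.7 and 17.8 FPKM in Th17 cells (difference -4.47 ± 0.32, adjusted p = 9.45e-05), the most negative difference of all genes tested. Some negative regulators of the pathway were among the lower genes and 1 among the higher. Skil, a SMAD co-repressor (chromosome 3, 31095058 to 31122577), was at 10.5, 12.2 and 9.93 FPKM against 56.2, 65.9 and 32.7 FPKM in Th17 cells (difference -2.09 ± 0.25, adjusted p = 0.000987). Spsb1, an adaptor that marks a TGF-beta receptor for degradation (chromosome 4, 149896283 to 149955043), was at 1.80, 2.70 and 1.14 FPKM against 30.9, 34.3 and 15.8 FPKM in Th17 cells (difference -3.24 ± 0.35, adjusted p = 0.000599). In Skil, Spsb1 and Ccr8, Th17 replicate 3 was the lowest Th17 library yet above every derived library. Smad7, the inhibitory SMAD, was at 8.76, 10.8 and 11.7 FPKM against 29.0, 31.1 and 15.3 FPKM in Th17 cells (difference -1.14 ± 0.25, adjusted p = 0.0162). The adjusted p was 0.0767 without Th17 replicate 1, 0.0744 without Th17 replicate 2 and 0.0669 without derived replicate 1. Like Skil and Spsb1, Smad7 was lowest among Th17 libraries in replicate 3. Tgif2, a co-repressor of SMAD targets, was higher, at 7.20, 5.99 and 6.86 FPKM against 4.16, 4.34 and 3.82 FPKM in Th17 cells (difference 0.59 ± 0.12, adjusted p = 0.0118). For Tgif2 the adjusted p was 0.0553 without derived replicate 1, and 0.102 with replicates 1 and 2 only. Smad3, a signal transducer of the pathway, was higher, at 20.6, 20.8 and 21.5 FPKM against 11.9, 11.1 and 12.2 FPKM in Th17 cells (difference 0.79 ± 0.13, adjusted p = 0.00531, and 0.0569 with replicates 1 and 2 only). Id2, an inhibitor of E proteins, averaged 238 ± 56.3 against 107 ± 48.5 FPKM (difference 1.20 ± 0.28, adjusted p = 0.0204). Its adjusted p was 0.0901 without Th17 replicate 1, 0.0873 without Th17 replicate 2, 0.0511 without derived replicate 2 and 0.0645 without derived replicate 3.

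Regulators of helper T cell fates differed in both directions. Rora, a nuclear receptor gene of Th17 cells, was at 7.81, 8.23 and 10.8 FPKM against 6.77, 5.74 and 4.86 FPKM in Th17 cells and did not pass the test (difference 0.55 ± 0.23, adjusted p = 0.129). Rora stayed uncalled in 8 of 9 fits that left out 1 library and in 12 of 14 other fits, and was called higher in the rest. Ahr, the aryl hydrocarbon receptor gene (chromosome 12, 35497974 to 35535038), was at 2.85, 3.82 and 1.80 FPKM against 13.5, 12.2 and 13.3 FPKM in Th17 cells (difference -1.91 ± 0.20, adjusted p = 0.000537). Its induced repressors Ahrr and Tiparp differed by -1.52 ± 0.19 and -1.17 ± 0.16 (adjusted p = 0.00137 and 0.00176). They were the 3 lower genes among 8 tested targets, of which 0 were higher. In the list of the Th17 program 10 of 25 genes (40%) were higher and 3 (12%) lower, against 6.43% and 9.49% of all genes tested. The lower count was 1 without Th17 replicate 1 or 2, and 5 with no filter on low values. Among the higher members were Il21, Csf2, Hif1a, Il10, Irf4 and Ltb4r1, described in other groups here. Why members of this list were higher was not tested. Foxp3, the regulatory T cell factor (chromosome X, 7573644 to 7595245), was at 2.16, 4.43 and 1.70 FPKM against 9.36, 13.2 and 9.61 FPKM in Th17 cells (difference -1.69 ± 0.31, adjusted p = 0.00686). Tbx21, which encodes T-bet, was at 26.7, 24.1 and 48.1 FPKM against 6.88, 6.30 and 12.3 FPKM in Th17 cells (difference 1.82 ± 0.30, adjusted p = 0.00436). With replicates 1 and 2 only the adjusted p of Foxp3 was 0.0542. In the regulatory T cell list 6 of 17 genes (35.3%) were higher and 3 (17.6%) lower. The higher calls numbered 3 without derived replicate 1 or 2, and the lower calls 6 without Th1 replicate 2. A fit of the 2 groups only and one with the Cd8 covariate each gave 5 lower.

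In the Th1 program list 11 of 26 genes (42.3%) were higher and 3 (11.5%) lower, against 6.43% and 9.49% of all genes tested (median 0.82). Among the lower genes, Eomes, a T-box factor related to T-bet, was at 4.38, 9.40 and 6.80 FPKM against 18.8, 23.4 and 44.2 FPKM in Th17 cells (difference -1.88 ± 0.38, adjusted p = 0.0116, and 0.0820 with replicates 1 and 2 only). Cd226, an activating receptor, averaged 14.1 ± 2.77 against 34.5 ± 5.60 FPKM (difference -1.24 ± 0.16, adjusted p = 0.00135). Tbx21 and Eomes thus differed in opposite directions. T follicular helper genes were higher in 6 of 12 cases and lower in 0; the count was 3 without derived replicate 1. Of 11 genes of the Th2 program 4 (36.4%) were higher and 1 (9.09%) lower. Ecm1, a secreted matrix protein of that list (chromosome 3, 95734147 to 95739569), was at 209, 180.2 and 166 FPKM against 49.9, 55.7 and 25.7 FPKM in Th17 cells (difference 2.12 ± 0.36, adjusted p = 0.00483) and averaged 12.3 ± 5.53 FPKM in the Th1 reference.

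Transcription factors and phosphatases induced by activation were higher in 12 of 35 cases (34.3%) and lower in 2 (5.71%), with a median of 0.55. The shares of all genes tested were 6.43% and 9.49%. The higher count of the list was 7 without Th17 replicate 1 or 2. The lower count was 0 without Th17 replicate 1, 2 or 3 or derived replicate 1 or 2 and 1 without Th1 replicate 1 or derived replicate 3. It was 0 after median-ratio scaling or with no filter on low values, and 1 after quantile normalization, with a pseudocount of 0.1 or with replicates 1 and 2 only. Batf3, an AP-1 partner factor (chromosome 1, 191097847 to 191108945), was at 22.5, 15.3 and 19.3 FPKM against 1.42, 0.808 and 3.31 FPKM in Th17 cells (difference 2.90 ± 0.33, adjusted p = 0.000820). Jun, a core AP-1 subunit, was at 84.0, 80.0 and 95.7 FPKM against 16.8, 18.2 and 21.0 FPKM in Th17 cells (difference 2.16 ± 0.26, adjusted p = 0.00107). Both AP-1 genes were higher in each derived library than in any Th17 library. Prdm1, which encodes the effector factor Blimp-1, was at 3.74, 3.46 and 4.91 FPKM against 0.875, 1.10 and 1.83 FPKM in Th17 cells (difference 1.16 ± 0.18, adjusted p = 0.00346). Bhlhe40, a factor of cytokine-producing helper cells, was at 95.2, 82.4 and 135 FPKM against 41.3, 38.3 and 49.0 FPKM in Th17 cells (difference 1.24 ± 0.24, adjusted p = 0.00914). All 4 genes separated the groups without overlap.

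Surface receptors of the CD28, nectin-binding and SLAM families split in direction. Of 31 tested, 11 (35.5%) were higher and 5 (16.1%) lower, against 6.43% and 9.49% of all genes tested. The lower count was 3 without Th17 replicate 1 or 2 or derived replicate 1 or 2. Pdcd1, which encodes the inhibitory receptor PD-1 (chromosome 1, 94038305 to 94052553), was at 20.1, 20.2 and 30.3 FPKM against 8.9996, 8.93 and 9.13 FPKM in Th17 cells (difference 1.27 ± 0.16, adjusted p = 0.00132). Cd274, which encodes its ligand PD-L1, was at 21.2, 22.2 and 24.5 FPKM against 6.95, 6.33 and 11.6 FPKM in Th17 cells (difference 1.39 ± 0.24, adjusted p = 0.00540). The genes of this receptor and its ligand were thus both higher in each derived library. Havcr2, which encodes TIM-3, was at 10.2, 11.6 and 22.9 FPKM against 2.98, 2.51 and 5.53 FPKM in Th17 cells (difference 1.74 ± 0.31, adjusted p = 0.00694). Lag3, an inhibitory receptor for MHC class II, was at 15.3, 15.2 and 39.5 FPKM against 1.80, 2.07 and 5.30 FPKM in Th17 cells (difference 2.54 ± 0.58, adjusted p = 0.0194). Its adjusted p was 0.0867 without Th17 replicate 1, 0.0852 without Th17 replicate 2 and 0.0597 without derived replicate 3. In Havcr2 and Lag3 the libraries of replicate 3 were the highest of both groups, as for Cd8a. Icos, a costimulator of helper cells, averaged 119 ± 9.61 against 51.8 ± 2.21 FPKM (difference 1.18 ± 0.18, adjusted p = 0.00282). Cd244a, which encodes the SLAM receptor 2B4 (chromosome 1, 171559193 to 171609746), was lower, at 1.31, 1.88 and 2.09 FPKM against 14.9, 14.5 and 17.3 FPKM in Th17 cells (difference -2.59 ± 0.16, adjusted p = 5.03e-05). Cd96, which binds the nectin-like CD155, was, was at 25.4, 26.8 and 40.5 FPKM against 95.7, 101 and 78.8 FPKM in Th17 cells (difference -1.57 ± 0.20, adjusted p = 0.00142). With Cd226, also a receptor of CD155, at 13.2, 11.9 and 17.2 FPKM against 35.4, 28.4 and 39.5 FPKM in Th17 cells, both of these nectin-binding receptor genes were lower.

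Of 33 TNF and TNF receptor superfamily genes, 13 (39.4%) were higher and 2 (6.06%) lower, against 6.43% and 9.49% of all genes tested. The lower count was 0 without Th17 replicate 1 or 2, 1 without Th1 replicate 1 or Th17 replicate 3 or derived replicate 1 or 2 and 4 without Th1 replicate 2. It was 1 after median-ratio scaling, with a pseudocount of 0.1 or with replicates 1 and 2 only, and 4 with the Cd8 covariate or a fit of the 2 groups only. Tnfrsf8, which encodes the activation receptor CD30 (chromosome 4, 145267137 to 145315164), was at 44.7, 38.3 and 32.9 FPKM against 1.77, 1.48 and 3.57 FPKM in Th17 cells (difference 3.64 ± 0.36, adjusted p = 0.000375). Tnfsf4, which encodes OX40 ligand, was at 12.5, 12.8 and 21.3 FPKM against 1.92, 2.40 and 2.12 FPKM in Th17 cells (difference 2.36 ± 0.20, adjusted p = 0.000195). Both were below 4 FPKM in each Th17 library. Tnfsf14, the ligand LIGHT, was at 15.0, 13.4 and 17.8 FPKM against 2.37, 1.97 and 4.88 FPKM in Th17 cells (difference 2.07 ± 0.23, adjusted p = 0.000779). Tnfrsf13c, which encodes the receptor of the B cell factor BAFF, was lower, at 0.520, 0.644 and 0.858 FPKM against 6.91, 6.23 and 2.09 FPKM in Th17 cells (difference -1.75 ± 0.31, adjusted p = 0.00606). Each of these genes separated the groups without overlap.

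Of 31 tested cytotoxic genes, 7 (22.6%) were higher and 3 (9.68%) lower, against 6.43% and 9.49% of all genes tested. The lower share was thus near that of all genes tested. The higher count was 11 with replicates 1 and 2 only and 15 with the Cd8 covariate. It was 4 without Th17 replicate 1 or 2 or derived replicate 1 and 12 without Th17 replicate 3. Prf1, which encodes perforin (chromosome 10, 61297833 to 61304680), was at 105, 117 and 249 FPKM against 9.35, 10.4 and 32.3 FPKM in Th17 cells (difference 3.21 ± 0.47, adjusted p = 0.00253). Gzmd, a granzyme of late effector cells, was at 12.1, 17.2 and 81.0 FPKM against 0, 0.819 and 2.60 FPKM in Th17 cells (difference 3.85 ± 0.68, adjusted p = 0.00615). In both, replicate 3 was the highest library of each group, and Gzmd was listed at 0 in Th17 replicate 1. Gzmd and Gzme, at 7.88, 9.53 and 46.7 FPKM against 0, 0.312 and 1.34 FPKM in Th17 cells (difference 3.50 ± 0.59, adjusted p = 0.00486), are neighbouring near copies, so reads may have been divided between them. Gzmb, the main granzyme of effector T cells, overlapped, at 2196, 2443 and 3349 FPKM against 854, 929 and 2665 FPKM in Th17 cells (difference 1.03 ± 0.42, adjusted p = 0.122). Gzmb stayed uncalled in 8 of 9 fits that left out 1 library and in 11 of 14 other fits, and was called higher in the rest. Ctsw, a cathepsin of cytotoxic cells and the called gene with the largest loss in FPKM, was at 83.6, 93.1 and 174 FPKM against 298, 306 and 258 FPKM in Th17 cells (difference -1.36 ± 0.26, adjusted p = 0.00902). Ctsc, the protease that activates granzymes, averaged 32.4 ± 0.857 against 66.7 ± 15.8 FPKM (difference -0.99 ± 0.17, adjusted p = 0.00539). Klrb1c, which encodes NK1.1, was at 0.240, 0.496 and 0.0824 FPKM against 3.67, 3.06 and 7.19 FPKM in Th17 cells (difference -2.09 ± 0.30, adjusted p = 0.00239).

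Genes of progenitor, memory-like and circulating T cells did not move together. In the progenitor and memory-like list 3 of 25 genes (12%) were higher and 5 (20%) lower, against 6.43% and 9.49% of all genes tested. The median was -0.04. The higher count was 1 without Th17 replicate 1 or 2 or derived replicate 1 or 2 and 5 without Th1 replicate 2, and 5 in a fit of the 2 groups only. The lower count was 3 without Th17 replicate 1 or 2 or derived replicate 1. Tcf7, which encodes TCF-1 (chromosome 11, 52252371 to 52283014), was at 253, 272 and 366 FPKM against 419, 431 and 264 FPKM in Th17 cells. Ccr7, the lymph node homing receptor gene, was at 149, 145 and 127 FPKM against 160.4, 161 and 99.6 FPKM in Th17 cells. Neither gene passed the test (differences -0.31 ± 0.36 and 0.03 ± 0.24, adjusted p = 0.577 and 0.947). Klf2, a factor that sustains recirculation (chromosome 8, 72319033 to 72321656), was lower, at 37.6, 51.1 and 39.4 FPKM against 142, 159 and 76.5 FPKM in Th17 cells (difference -1.48 ± 0.25, adjusted p = 0.00457). S1pr1, its target and the receptor for exit from lymph nodes, was at 46.6, 55.8 and 52.2 FPKM against 137, 141 and 71.8 FPKM in Th17 cells (difference -1.10 ± 0.25, adjusted p = 0.0190). The adjusted p was 0.0867 without Th17 replicate 1, 0.0867 without Th17 replicate 2 and 0.0721 without derived replicate 1. Dapl1, a gene of memory-like T cells, was higher at low levels, 2.15, 3.73 and 3.10 FPKM against 0.290, 0.108 and 0.154 FPKM in Th17 cells (difference 1.74 ± 0.28, adjusted p = 0.00366).

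Of 23 chemoattractant receptors and homing genes 7 were higher and 3 lower; the lower count was 1 without Th17 replicate 1 or 2. Ltb4r1, the leukotriene B4 receptor gene, was at 39.7, 32.1 and 29.5 FPKM against 5.52, 5.68 and 6.55 FPKM in Th17 cells (difference 2.32 ± 0.14, adjusted p = 5.03e-05). Gpr18, a receptor of intestinal lymphocytes, averaged 58.7 ± 15.4 against 20.2 ± 5.46 FPKM (difference 1.49 ± 0.23, adjusted p = 0.00299), and Cd44, the hyaluronan receptor, 59.3 ± 6.94 against 24.9 ± 4.73 FPKM (difference 1.23 ± 0.16, adjusted p = 0.00160). Cx3cr1, the fractalkine receptor gene, was at 0.116, 0.170 and 0.148 FPKM against 4.58, 4.56 and 2.71 FPKM in Th17 cells (difference -2.09 ± 0.17, adjusted p = 0.000156). Among 19 integrins and partners 5 (26.3%) were lower and 2 (10.5%) higher. The lower count was 3 without Th17 replicate 1, and the higher count 1 without Th17 replicate 1 or 2 or derived replicate 1 or 3. Besides Itgae, its partner chain Itgb7 was lower, at 213, 226 and 197 FPKM against 329, 346 and 296 FPKM in Th17 cells (difference -0.61 ± 0.10, adjusted p = 0.00533). Icam1, a ligand of LFA-1, was higher, at 78.2, 72.6 and 97.1 FPKM against 22.9, 24.1 and 31.7 FPKM in Th17 cells (difference 1.62 ± 0.25, adjusted p = 0.00335).

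**Figure D4:**
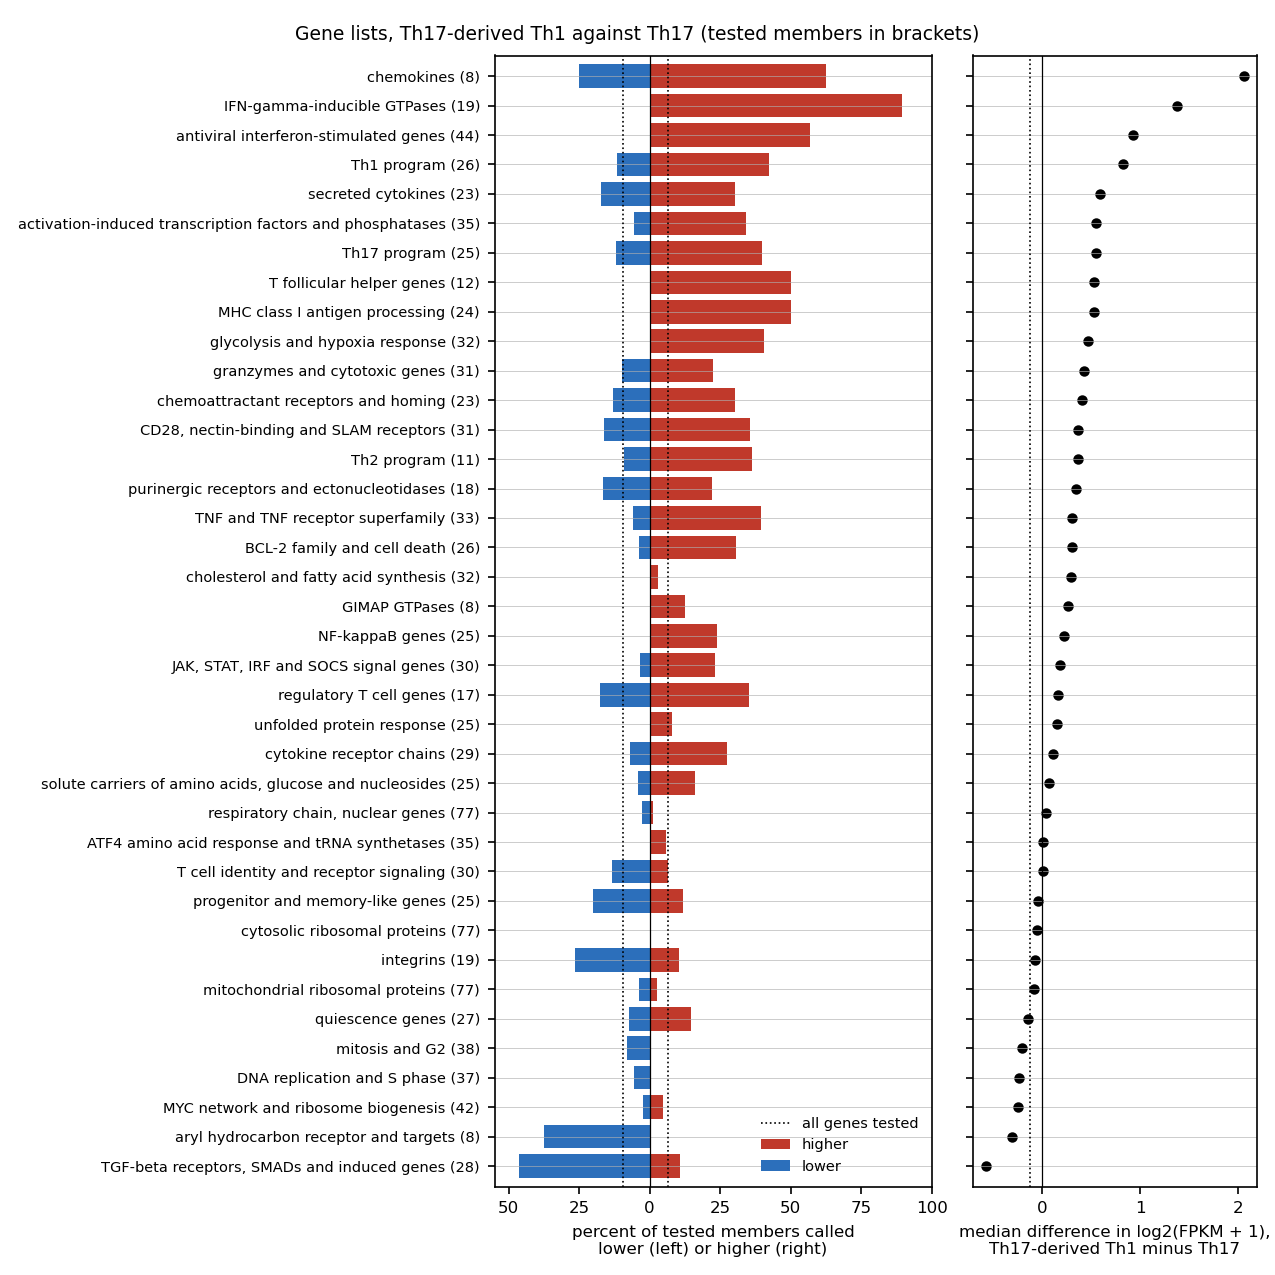
For 38 gene lists, ordered by median, the left panel gives the percentage of tested members called higher (red) or lower (blue) in derived cells, with dotted lines at the shares among all genes tested (6.43% and 9.49%), and the right panel the median difference in log2(FPKM + 1), with the median of all genes (-0.12) dotted. The chemokine list (median 2.06) stands at the upper end, followed by the GTPases (1.37) and antiviral genes (0.93). The TGF-beta list stands at the lower end, while the medians of ribosomal and respiratory genes lie near 0.

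Among metabolic genes, those of glycolysis and the hypoxia response held most of the calls. Of 32 genes of glycolysis and the hypoxia response, 13 were higher and 0 lower (median 0.47); the count was 7 without Th17 replicate 1 or 2 or derived replicate 1 and 8 without derived replicate 2 or 3. Hif1a, the hypoxia-inducible factor (chromosome 12, 73901375 to 73947530), was at 181, 156 and 175 FPKM against 48.8, 44.0 and 70.5 FPKM in Th17 cells (difference 1.65 ± 0.19, adjusted p = 0.000933). Egln3, a prolyl hydroxylase induced by it (chromosome 12, 54178981 to 54203860), was at 61.3, 46.6 and 41.8 FPKM against 12.7, 11.9 and 10.5 FPKM in Th17 cells (difference 1.98 ± 0.20, adjusted p = 0.000399). Egln3 was highest in derived replicate 1. Slc2a1, the glucose transporter GLUT1, was at 45.3, 37.4 and 33.6 FPKM against 14.6, 15.4 and 20.6 FPKM in Th17 cells (difference 1.16 ± 0.17, adjusted p = 0.00232). Slc16a3, a lactate exporter, was at 16.5, 14.6 and 24.8 FPKM against 6.95, 5.29 and 9.07 FPKM in Th17 cells (difference 1.27 ± 0.22, adjusted p = 0.00580). All 4 separated the groups without overlap. Of 77 nuclear genes of the respiratory chain 1 was higher (Ndufv3, a complex I subunit, 0.49 ± 0.08, adjusted p = 0.00441) and 2 were lower. Both shares of the list are below the 6.43% and 9.49% of all genes tested. The counts were at most 3 higher (after median-ratio scaling) and 4 lower (after quantile normalization) under the other scalings. The higher count was 2 without Th1 replicate 2 or Th17 replicate 3, and the lower count 0 without Th17 replicate 1 or 2, 1 without derived replicate 1, 2 or 3 and 4 without Th1 replicate 2. With replicates 1 and 2 only 0 were lower, and with the Cd8 covariate 2 were higher. Array weights, which count divergent libraries less, gave 12 higher and 8 lower. Of 32 genes of cholesterol and fatty acid synthesis 1 was called higher (median 0.30), but 8 were with replicates 1 and 2 only and 8 with the Cd8 covariate. It was 3 after median-ratio scaling, 2 after quantile normalization, and 0 without Th17 replicate 1 or 2, 2 without Th1 replicate 2 and 14 without Th17 replicate 3.

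Among 77 cytosolic ribosomal protein genes limma called 0 in either direction (median -0.05), and 8 had an unadjusted p below 0.05. The lower count was 9 after quantile normalization, 17 with array weights and 2 with equal FPKM sums. It was 1 with a pseudocount of 5, a filter at a mean of 5 FPKM or robust moderation. Without Th1 replicate 2 it was 2, and without Th17 replicate 3 it was 1. Of 37 DNA replication genes 2 and of 38 mitotic genes 3 were lower, with medians of -0.24 and -0.20. These shares, 5.41% and 7.89%, are below the 9.49% of all genes tested. The replication count was 0 without Th1 replicate 1 or Th17 replicate 1, 2 or 3 or derived replicate 1, 2 or 3 and 1 without Th1 replicate 3. The mitotic count was 0 without Th17 replicate 1, 2 or 3 or derived replicate 1, 2 or 3. Both were 0 after median-ratio scaling and with replicates 1 and 2 only, and the replication count was 1 after quantile normalization and with no filter on low values. Mxd1, an antagonist of MYC (chromosome 6, 86647042 to 86669161), was at 36.0, 32.2 and 70.4 FPKM against 8.09, 8.86 and 9.35 FPKM in Th17 cells (difference 2.19 ± 0.35, adjusted p = 0.00366), highest in replicate 3 of derived cells. Atf6, a sensor of misfolded proteins, averaged 13.5 ± 0.817 against 7.65 ± 1.20 FPKM (difference 0.76 ± 0.12, adjusted p = 0.00338).

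Of the genes of cell death and NF-kappaB signals that were called, most were higher. Of 26 BCL-2 family and cell death genes 8 (30.8%) were higher and 1 (3.85%) lower, against 6.43% and 9.49% of all genes tested. The higher count was 3 without Th17 replicate 1 or 2, 4 without derived replicate 1 and 5 without derived replicate 2. A lower gene was called in no fit that left out a library other than Th1 replicate 2. There was also none after median-ratio scaling or quantile normalization, with replicates 1 and 2 only, in a fit of the 2 groups only, with a pseudocount of 0.1, with no filter on low values or with a filter at a mean of 5 FPKM. Casp4, the sensor caspase of intracellular lipopolysaccharide (chromosome 9, 5308828 to 5336783), was at 20.0, 16.6 and 24.2 FPKM against 3.02, 1.84 and 3.23 FPKM in Th17 cells (difference 2.53 ± 0.31, adjusted p = 0.00115). Casp6, an executioner caspase, was at 24.6, 19.0 and 20.9 FPKM against 8.19, 8.18 and 7.40 FPKM in Th17 cells (difference 1.33 ± 0.11, adjusted p = 0.000156). Of 25 NF-kappaB genes 6 (24%) were higher and 0 lower, and the count was 10 without Th1 replicate 2. Traf1, an adaptor of TNF receptors, averaged 101 ± 26.3 against 41.0 ± 2.78 FPKM (difference 1.25 ± 0.22, adjusted p = 0.00583), and Bcl3, a nuclear cofactor of NF-kappaB, 66.4 ± 7.32 against 30.6 ± 2.28 FPKM (difference 1.09 ± 0.16, adjusted p = 0.00238).

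Receptors for extracellular ATP and adenosine differed by gene. Of 18 purinergic receptors and ectonucleotidases 4 (22.2%) were higher and 3 (16.7%) lower, against 6.43% and 9.49% of all genes tested. In a fit of the 2 groups only 7 were higher. P2rx3, an ATP-gated channel best known from sensory neurons (chromosome 2, 84998583 to 85037462), was at 15.1, 15.7 and 35.5 FPKM against 0.0509, 0.366 and 0.250 FPKM in Th17 cells (difference 4.14 ± 0.36, adjusted p = 0.000205). P2rx7, an ATP-gated channel of T cells (chromosome 5, 122643911 to 122691432), was at 24.1, 17.1 and 15.4 FPKM against 1.54, 1.34 and 0.979 FPKM in Th17 cells (difference 3.10 ± 0.20, adjusted p = 5.03e-05). Adora2a, an adenosine receptor gene of T cells, was at 8.13, 8.502 and 14.9 FPKM against 1.496, 2.11 and 1.94 FPKM in Th17 cells (difference 1.97 ± 0.36, adjusted p = 0.00701). These 3 genes were higher in each derived library than in any Th17 library. P2ry1, a receptor for ADP, was lower, at 0.174, 0.367 and 0.482 FPKM against 7.34, 7.24 and 2.83 FPKM in Th17 cells (difference -2.26 ± 0.31, adjusted p = 0.00196). Nt5e, which encodes the adenosine-producing enzyme CD73, was lower as well, at 17.8, 20.5 and 23.2 FPKM against 49.8, 52.5 and 31.1 FPKM in Th17 cells (difference -1.05 ± 0.19, adjusted p = 0.00685). In P2rx3 derived replicate 3 was more than 2 times the others, and in P2ry1 and Nt5e Th17 replicate 3 was the lowest of its group.

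Other genes with large differences had various roles. Furin, a protease that cleaves proproteins and is induced by IL-12 in T cells (chromosome 7, 80388585 to 80405436), was at 556, 518 and 639 FPKM against 52.0, 64.2 and 56.8 FPKM in Th17 cells. Its adjusted p was the smallest of the genes named here (difference 3.29 ± 0.13, adjusted p = 1.15e-05). Ubd, a ubiquitin-like modifier induced by interferon-gamma, was at 26.7, 15.4 and 9.58 FPKM against 0.225, 0.502 and 0 FPKM in Th17 cells (difference 3.78 ± 0.60, adjusted p = 0.00365). Lilrb4a, an inhibitory receptor of the immunoglobulin-like family, was at 199, 152 and 185 FPKM against 12.6, 10.7 and 23.9 FPKM in Th17 cells (difference 3.50 ± 0.24, adjusted p = 8.69e-05), next to its near copy Lilr4b (difference 3.50 ± 0.26, adjusted p = 0.000101). Ubd was highest in derived replicate 1 and lowest in replicate 3. Coro6, a coronin of the actin cytoskeleton, was at 37.2, 33.8 and 19.3 FPKM against 1.29, 1.74 and 1.52 FPKM in Th17 cells (difference 3.58 ± 0.52, adjusted p = 0.00248). Ly6a, which encodes Sca-1, gained FPKM from a high level, at 1292, 1199 and 1393 FPKM against 570.1, 534 and 795 FPKM in Th17 cells (difference 1.05 ± 0.15, adjusted p = 0.00230). Coro6 was lowest and Ly6a highest in derived replicate 3. On the lower side, Ncmap, a myelin-associated protein gene, was at 0.414, 1.10 and 0.0894 FPKM against 30.7, 38.3 and 7.65 FPKM in Th17 cells (difference -3.90 ± 0.50, adjusted p = 0.00135). Nrarp, a feedback inhibitor of Notch signals, was at 2.36, 3.29 and 1.61 FPKM against 23.3, 28.4 and 14.6 FPKM in Th17 cells (difference -2.74 ± 0.29, adjusted p = 0.000569). Src, the tyrosine kinase gene, was at 0.469, 0.584 and 0.453 FPKM against 7.82, 10.1 and 4.68 FPKM in Th17 cells (difference -2.45 ± 0.22, adjusted p = 0.000222). For Ncmap and Nrarp Th17 replicate 3 was the lowest Th17 library.

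By a level rule, 5 genes were on in derived cells only, with at least 5 FPKM in each derived and below 1 FPKM in each Th17 library: Il21, P2rx3, Ly6g, Ubd and Serpinb5. Serpinb5, which encodes the serpin maspin (chromosome 1, 106861173 to 106883348), was at 14.6, 8.63 and 5.78 FPKM against 0, 0.0181 and 0 FPKM in Th17 cells and averaged 0.483 ± 0.220 FPKM in the Th1 reference. Ly6g, a neutrophil marker of the Ly6 cluster (chromosome 15, 75155240 to 75159126), was at 9.38, 10.4 and 34.7 FPKM against 0.0761, 0.559 and 0.711 FPKM in Th17 cells. The reverse pattern held for 5 genes: Cdh1, Apol9b, Gja5, Il17f and Adgrg1. Gja5, which encodes the gap junction protein connexin 40 (chromosome 3, 96904693 to 97077416), was at 0.418, 0.651 and 0.473 FPKM against 12.9, 15.5 and 15.1 FPKM in Th17 cells (difference -3.35 ± 0.32, adjusted p = 0.000346). Adgrg1, the adhesion receptor GPR56, was at 0.286, 0.236 and 0.691 FPKM against 6.90, 11.1 and 5.53 FPKM in Th17 cells (difference -2.62 ± 0.25, adjusted p = 0.000347). Apol9b, an apolipoprotein L gene with a near copy in Apol9a, was at 0.368, 0.251 and 0.258 FPKM against 22.7, 26.7 and 6.02 FPKM in Th17 cells (difference -3.69 ± 0.43, adjusted p = 0.000915).

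Some genes called the same way stood side by side on a chromosome. Counting runs of at least 3 neighbouring tested genes, a description chosen after the values were seen, there were 22 runs of higher genes, with 74 genes, and 17 runs of lower genes, and the longest held 5 genes. How many runs the shares of called genes alone would give was not worked out, so these counts do not show clustering. Ifit2, Ifit3, Ifit1bl1, Ifit3b and Ifit1 formed such a run on chromosome 19 (34550694 to 34650009), with differences from 0.73 to 3.27. Gbp5, Gbp7, Gbp3 and Gbp2 lay in a row on chromosome 3 (142493978 to 142638008), Ccl5, Ccl9, Ccl3 and Ccl4 on chromosome 11 (83525778 to 83664683), and Psmb9, Tap1, Psmb8 and Tap2, of the MHC, on chromosome 17 (34181987 to 34216321). The interleukin receptor genes Il1rl1, Il18r1 and Il18rap formed a run on chromosome 1 (40429570 to 40551705), and Gzme, Gzmd and Gzmg on chromosome 14 (56117626 to 56159579). Among lower genes Itgae stood in a run of 5, with Atp2a3, Camkk1, Ncbp3 and Haspin, on chromosome 11 (72961169 to 73147446), with differences from -3.60 to -0.47. Near copies within several of these runs share sequence, and Haspin lies within the bounds of Itgae, so the values of such genes may not be independent.

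Markers of cells other than T cells were low. Of 5 CD8 T cell markers limma called 0 in either direction and 0 had an unadjusted p below 0.05. With the replicate number as a block 1 of them was called lower. The 5 markers summed to 125 to 402 FPKM in derived and 164 to 409 FPKM in Th17 libraries. Whether the groups held equal shares of CD8 T cells was not tested. Markers of B cells summed to 1.47 to 2.71 and 3.10 to 4.15 FPKM, of dendritic cells and macrophages to 4.76 to 10.02 and 3.17 to 6.45 FPKM, and of erythroid cells to at most 0.727 FPKM. In all, 6 of 8 B cell, 10 of 13 dendritic or macrophage and 7 of 7 erythroid markers were below 1 FPKM in all 6 libraries. NK cell markers summed to 20.7 to 43.6 FPKM in derived and 29.1 to 37.7 FPKM in Th17 libraries, and 4 of 8 were below 1 FPKM throughout. Of 9 neutrophil and mast cell markers 7 were below 1 FPKM in all 6 libraries, 5 of them listed at 0, and the remaining 2, Ly6g and Kit, made up the higher sum of derived cells (13.4 to 39.8 against 2.01 to 3.04 FPKM). The signal of Ly6g therefore came without the other neutrophil markers. Of 30 tested genes of T cell identity and receptor signalling, 2 (6.67%), Cd28 and Cd2, were higher and 4 (13.3%) lower. Among all genes tested the shares were 6.43% and 9.49%. The median of the list was 0.01. Its counts were 5 and 2 after median-ratio scaling, 1 and 7 after quantile normalization and 0 and 4 with replicates 1 and 2 only. The higher count was 1 without Th17 replicate 1, 2 or 3 or derived replicate 1, 2 or 3. The lower count was 2 without Th17 replicate 1 or 2 or derived replicate 1. Without Th1 replicate 2 the counts were 3 and 5. Cd2 kept its call in 3 of 9 fits that left out 1 library. Among the lower genes, Cd3e, a chain of the T cell receptor complex, averaged 155 ± 8.79 against 224 ± 18.3 FPKM (difference -0.52 ± 0.09, adjusted p = 0.00501).

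Set against the Th1 reference, the same 3 derived libraries differed in 1104 of 10538 genes (10.5%); this comparison shares the derived libraries with the one above. The following levels are given as a description, with no test. For some genes the derived mean lay outside the range from the Th17 to the Th1 mean. Il21 averaged 31.0 ± 12.6 FPKM in derived, 0.569 ± 0.166 in Th17 and 1.21 ± 0.511 in Th1 cells. Cxcl10 averaged 91.3 ± 31.2, 8.05 ± 3.50 and 19.2 ± 10.5 FPKM in that order, and Il6st 39.5 ± 5.01, 7.45 ± 1.15 and 17.3 ± 5.69 FPKM. For others it lay between them: Ccl5 averaged 109.8 ± 49.9, 6.95 ± 1.32 and 411 ± 194 FPKM, Tbx21 33.0 ± 13.2, 8.51 ± 3.33 and 85.9 ± 16.1 FPKM, and Ahr 2.82 ± 1.01, 13.03 ± 0.718 and 0.778 ± 0.306 FPKM. Ccr7 averaged 140.0 ± 11.7, 140.3 ± 35.3 and 30.2 ± 8.37 FPKM. Socs3 was at 68.4 ± 3.73, 63.9 ± 16.7 and 19.9 ± 1.49 FPKM.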

How the data were processed

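Messenger RNA of 9 mouse T cell cultures was sequenced, 3 each of Th17-derived Th1, Th17 and Th1 cells. The authors deposited FPKM values for 22017 gene symbols, with no read counts, so depth and counting error are unknown. Per the submitters' processing notes the build mm10, HISAT2 and DESeq2 were used; their roles and versions, the annotation and the handling of multiply mapped reads were not given in the sources used here. FPKM depends on library composition, so scaling was varied. Groups and replicate numbers came from the titles. Of the symbols, 21962 had a position in the GRCm38 annotation, 15 had been turned into dates and 5692 were at 0 in every library.

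The 10538 genes that reached 1 FPKM in 3 or more libraries were tested as log2(FPKM + 1), a pseudocount of 1, which understates the change of low genes. limma (version 3.58.1, R 4.3.3) with a mean-variance trend was fitted to all 9 libraries, with 6 residual degrees of freedom before moderation. Two-sided p-values were adjusted by Benjamini-Hochberg over all genes tested, with a threshold of 0.05. The fit was tested on simulated data. Named genes were key genes of the pathways, the 20 largest differences per direction (no overlap, at least 5 FPKM on average in the higher group), the 4 most changed called members per direction in each of 45 lists (7 of them markers of other cells), on and off genes, and the 6 largest changes in FPKM per direction. Members, lists and rules were chosen with earlier results of these data known. Alternatives covered scaling, pseudocount, filter, samples fitted, weights, moderation, a Cd8 covariate and each library left out. Promoters came from a RefSeq table (GRCm38.p6). Python 3.11.15, pandas 2.3.3 and matplotlib 3.10.9 were used. Some genes are not reported here.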

Additional observations from a re-analysis of the deposited data

How the results depend on the processing

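Against 678 higher and 1000 lower genes in Th17-derived Th1 cells, array weights gave 1579 and 3024. Median-ratio scaling gave 852 and 498, quantile normalization 750 and 625, and replicates 1 and 2 only 514 and 522. Leaving out 1 library gave 379 to 889 higher and 302 to 1453 lower genes. The counts were 379 and 302 without Th17 replicate 2, 382 and 327 without Th17 replicate 1, 422 and 417 without derived replicate 1, 477 and 522 without derived replicate 2, 490 and 604 without derived replicate 3, and 889 and 1453 without Th1 replicate 2. The cause of these shifts was not tested; leaving out a library also leaves fewer samples. The other settings stayed within 1.5 times, among them 669 and 982 with no filter, 813 and 1093 for the 2 groups alone and 776 and 1114 with the Cd8 covariate.

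Replicate numbers did not mark shared samples in the labels, and same-numbered derived and Th17 libraries deviated from their group means with correlations of 0.149, 0.0648 and -0.0115 across genes. Derived replicates 1 and 2 and Th17 replicate 1 correlated best with their own number, and the other 3 libraries did not. With the replicate number as a block, 745 genes were higher and 936 lower. Cytotoxic genes called higher then numbered 14, against 7 without the block, and genes of cholesterol and fatty acid synthesis 8 against 1. Genes called lower numbered 4 against 2 in the TNF superfamily, 5 against 3 among regulatory T cell genes, 2 against 1 among solute carriers, 0 against 2 in DNA replication, 1 against 3 in mitosis and 0 against 1 in the BCL-2 list. Beside these, only counts of marker lists of other cell types moved by over 1.5 times, by 1 gene each.

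Genes on in derived cells only numbered 5, but 2 where the Th17 libraries had to be below 0.5 FPKM and 32 where 2 FPKM sufficed in derived cells. Genes on in Th17 cells only numbered 5, and 3 and 36 under the same changes. Of 209 named genes tested, 194 were called. Of these, 124 were called in every fit that left out 1 library and tested them, 139 under each of the 14 other settings and 116 under all 23. None reversed (0). Most calls were lost without Th17 replicate 1 (66) or 2 (62). With values per library but no counts, differences of genes near 1 FPKM are limited by an unknown depth.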
